A study of Mus musculus with 8 samples.

Results

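The genes described here are 8 that mark or maintain the stem cells of the mouse hair follicle, Cd34, Lgr5, Lgr6, Lrig1, Lhx2, Sox9, Nfatc1 and Fgf18. They were taken by symbol, and each of the 8 matched 1 of the 34070 Ensembl identifiers in the count table, through the GENCODE M21 annotation of GRCm38. RNA-seq libraries were made from epidermal cell suspensions of mice aged 18 to 25 weeks, killed at zeitgeber time ZT4, that is 4 h after lights on. The 4 Bmal1cKO libraries came from K14-Cre;Bmal1flox/flox mice, in which Cre under the keratin 14 promoter acts on floxed Bmal1, the gene of a circadian transcription factor. The 4 Bmal1WT libraries came from K14-Cre;Bmal1wt/wt mice, which carry the same Cre and intact Bmal1. Keratin 14 is made by basal keratinocytes and the outer root sheath, so immune cells, melanocytes and dermal cells in a suspension are not cells in which this promoter is active. Whether the libraries of a genotype came from separate animals is not stated in the labels, and every p value refers to library-to-library variation, some of which may be technical.

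Each hair follicle keeps its stem cells in the bulge of the outer root sheath and in the hair germ below it, with further pools in the isthmus and junctional zone above. These cells rest for most of the hair cycle and are activated when a new hair starts to grow. Quiescence is upheld by transcription factors such as NFATC1 and LHX2 and by signals such as FGF18 and BMPs, while WNT signalling, which the R-spondin receptors LGR5 and LGR6 strengthen, accompanies activation. Clock genes are expressed in these cells, and BMAL1 with its partner CLOCK binds DNA at E-boxes. The comparison asks whether the transcripts of this compartment differ when BMAL1 is removed from the keratinocytes.

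Total counts per library were 35685261 to 50396156. Read from Xist and Y-linked genes, replicates 1 and 3 of both groups were female and replicates 2 and 4 male. The genotype labels were checked first. Bmal1 (listed as Arntl) had 32.0, 34.4, 37.6 and 30.7 CPM (counts scaled to library size) in Bmal1cKO replicates 1 to 4, against 46.1, 42.0, 49.1 and 48.7 CPM in Bmal1WT replicates 1 to 4. These groups did not overlap, with an edgeR adjusted p = 0.0611, or 0.0358 with the replicate number as a block, and 8.9e-05 to 0.693 over all alternatives. The count covers the whole gene, including exons outside any floxed part. Nr1d1, a direct clock target, averaged 2.58 ± 0.57 CPM in Bmal1cKO and 118 ± 17.1 CPM in Bmal1WT (SD, n = 4 each, edgeR adjusted p = 9.09e-07). Bmal1WT replicate 4 stood apart for several lists of follicle genes and for fibroblast markers, so each difference of the 8 genes is also given without it.

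Promoter windows from RefSeq (GRCm38.p6) were used for 5 of the 8 genes, Cd34, Lgr6, Lrig1, Lhx2 and Fgf18. No window of Lgr5, Sox9 or Nfatc1 was searched, and the counts below leave these genes out. The 6 windows used reach from 250 bases before to 50 after an annotated start. They were searched on both strands for the canonical E-box CACGTG and for the variant CACGTT, which reads AACGTG on the other strand, since these are the letters that CLOCK and BMAL1 recognise. CACGTG was found in 0 of the 6 windows, and in 7.15% of all 32851 windows of this length. The variant was found in 1 of the 6, the Lrig1 window, and in 4.68% of all windows. That window is shown with the match in capitals. Beside it stand the Nr1d1 window, the clock target that checked the labels and that holds the same letters, and the Cd34 window, which holds neither motif. A match describes the letters only and is not evidence of binding.

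Lrig1, chr6:94700096-94700395, minus strand: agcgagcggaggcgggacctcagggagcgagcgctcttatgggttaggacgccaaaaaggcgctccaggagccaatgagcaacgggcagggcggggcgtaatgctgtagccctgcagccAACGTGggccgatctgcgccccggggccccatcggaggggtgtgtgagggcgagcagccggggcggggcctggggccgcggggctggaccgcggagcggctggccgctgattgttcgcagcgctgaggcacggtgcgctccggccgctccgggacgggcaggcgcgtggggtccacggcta
Nr1d1, chr11:98775328-98775627, minus strand: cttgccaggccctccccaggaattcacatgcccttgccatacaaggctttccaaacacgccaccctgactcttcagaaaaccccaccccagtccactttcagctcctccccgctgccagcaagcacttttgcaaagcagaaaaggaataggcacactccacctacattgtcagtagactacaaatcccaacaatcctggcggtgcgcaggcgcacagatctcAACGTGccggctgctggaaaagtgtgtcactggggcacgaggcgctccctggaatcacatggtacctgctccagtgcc
Cd34, chr1:194938571-194938870, plus strand: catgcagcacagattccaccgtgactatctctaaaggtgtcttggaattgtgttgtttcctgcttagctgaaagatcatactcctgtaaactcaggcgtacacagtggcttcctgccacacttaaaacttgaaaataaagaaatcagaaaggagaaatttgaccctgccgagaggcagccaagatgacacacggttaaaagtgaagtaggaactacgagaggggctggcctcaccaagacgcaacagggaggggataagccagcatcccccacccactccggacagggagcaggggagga

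All 8 genes were expressed and passed the filter on low counts, and none passed the test between the genotypes. Their log2 fold changes, Bmal1cKO over Bmal1WT, ran from -0.07 for Sox9 to 0.27 for Fgf18. Over all 19646 genes tested, edgeR's quasi-likelihood test called 34 at an adjusted p under 0.05, which is 0.173% of them, with 0.0865% higher and the same share lower in Bmal1cKO. Of the 8 genes it called 0, the smallest adjusted p being 0.866. At an unadjusted p under 0.05 there were 0 of 8, against 8.3% of all genes, and DESeq2 and limma voom also called 0. The values of the groups overlapped in all 8, while 5.15% of all genes had groups without overlap. In bulk libraries, fewer cells of a type and less RNA per cell cannot be told apart, so a level here stands for both.

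**Figure D1:**
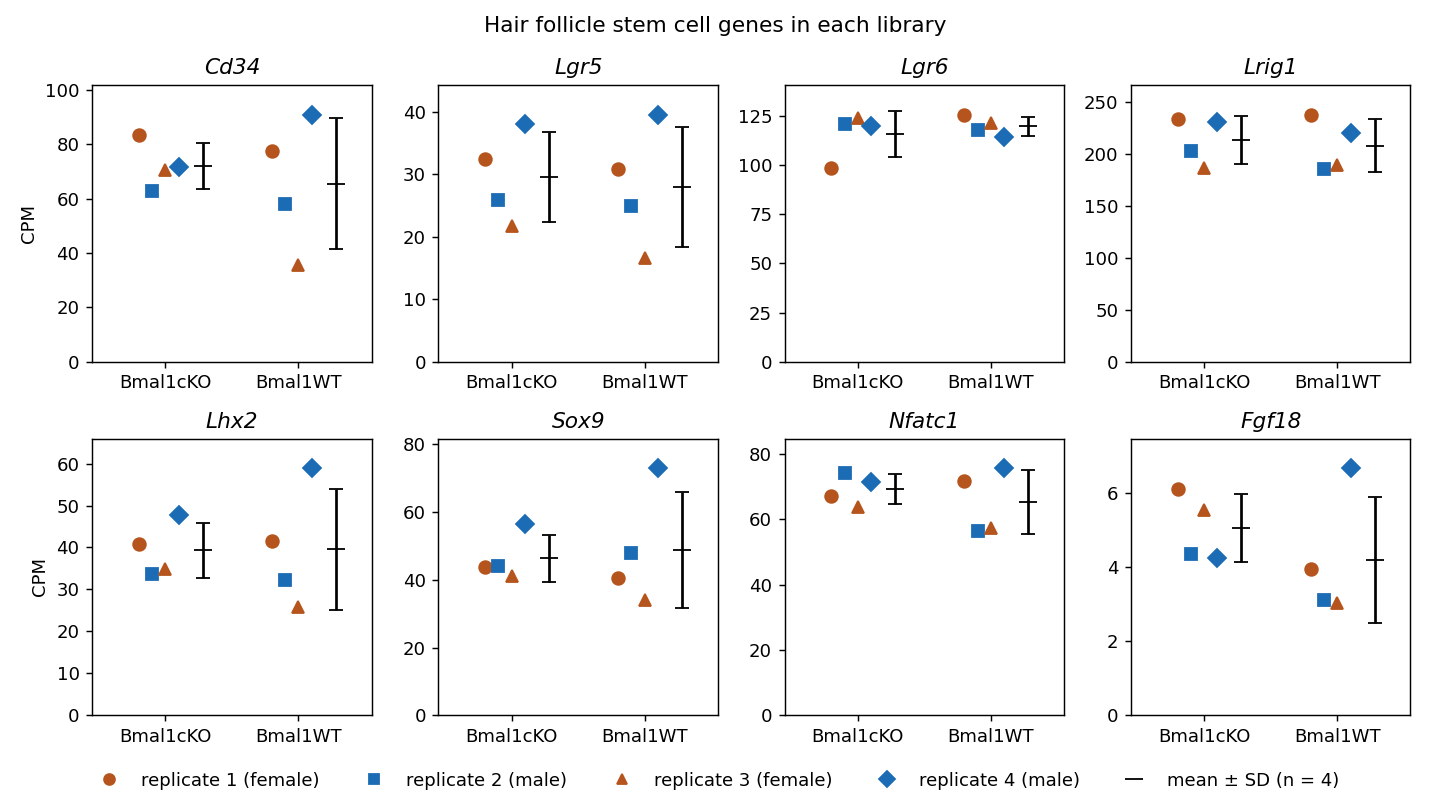
Each panel plots 1 gene, with CPM on TMM-scaled library sizes on the y axis from 0, Bmal1cKO on the left and Bmal1WT on the right. Points are libraries, marked by replicate number and coloured by sex, and bars give the mean ± SD (n = 4). The groups overlap in all 8 panels, and Bmal1WT replicate 4 is the highest of the 8 libraries in 6 of them.

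Cd34 encodes a sialomucin of the cell surface by which bulge cells of mouse skin are sorted, and which endothelium, fibroblasts and blood progenitors make as well (ENSMUSG00000016494, GRCm38 chromosome 1, 194938819 to 194961279, plus strand). It had 83.4, 62.9, 70.5 and 71.5 CPM in Bmal1cKO replicates 1 to 4, against 77.4, 57.9, 35.6 and 90.9 CPM in Bmal1WT replicates 1 to 4. The 4 Bmal1cKO libraries lay within the span of the Bmal1WT ones, whose replicate 3 was the lowest and replicate 4 the highest of all. The means were 72.1 ± 8.5 CPM in Bmal1cKO and 65.5 ± 24.1 CPM in Bmal1WT (SD, n = 4 each). The difference of 0.14 ± 0.24 (SE, log2) had an edgeR adjusted p = 0.936, and its 95% interval of -0.40 to 0.68 spans 0.759- to 1.6-fold.

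Lgr5 encodes the R-spondin receptor of the lower bulge and hair germ (ENSMUSG00000020140, chromosome 10, 115450311 to 115587780, minus strand). It had 32.5, 25.9, 21.7 and 38.2 CPM in Bmal1cKO replicates 1 to 4, against 30.8, 25.0, 16.6 and 39.6 CPM in Bmal1WT replicates 1 to 4. The 4 replicate numbers fell in the same order in both groups, replicate 4 above 1, 2 and 3. The log2 fold change was 0.08 ± 0.25 (SE, edgeR adjusted p = 0.975), with a 95% interval of -0.49 to 0.65. With the replicate number as a block its standard error was 0.077 and the interval -0.07 to 0.29 (log2 fold change 0.11, edgeR adjusted p = 0.648). The block also lowered the standard error for Lrig1 (0.101 to 0.053), Lhx2 (0.229 to 0.106) and Sox9 (0.213 to 0.0982). By a smaller share it did so for Cd34, Nfatc1 and Fgf18, and for Lgr6 it did not (0.0733 to 0.0758). Libraries of 1 replicate number also share sex.

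Lgr6, the paralog that marks isthmus cells above the bulge and some cells of the interfollicular epidermis, had the smallest ratio of highest to lowest library, 1.27 (ENSMUSG00000042793, chromosome 1, 134983301 to 135105276, minus strand). It had 98.8, 121, 123.8 and 119.7 CPM in Bmal1cKO replicates 1 to 4, against 125.7, 118, 121.2 and 114.4 CPM in Bmal1WT replicates 1 to 4. Apart from Bmal1cKO replicate 1, which was the lowest, the libraries lay within a narrow band. On the log2 scale the difference was -0.05 ± 0.07 (SE, edgeR adjusted p = 0.928), with a 95% interval of -0.21 to 0.12, or 0.862- to 1.08-fold. This was the narrowest interval of the 8.

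Lrig1 encodes a transmembrane protein that dampens ERBB receptor signalling and marks the junctional zone of the follicle (ENSMUSG00000030029, chromosome 6, 94604529 to 94700158, minus strand). It had 234.3, 202.7, 186.7 and 230.8 CPM in Bmal1cKO replicates 1 to 4, against 238.2, 185.6, 189.3 and 220.4 CPM in Bmal1WT replicates 1 to 4. In both groups replicates 1 and 4 were above replicates 2 and 3. Bmal1cKO over Bmal1WT, Lrig1 had a log2 fold change of 0.04 ± 0.10 (standard error, edgeR adjusted p = 0.97), with a 95% interval of 0.876- to 1.2-fold. Its exons overlap those of Slc25a26 on the other strand over 144 bases, 2.58% of the exon length, and the strand setting of the counting is not stated, so some reads could be shared. Slc25a26 held 1910 counts over the 8 libraries, against 67973 for Lrig1.

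Lhx2 encodes a LIM-homeodomain factor that keeps bulge cells in an undifferentiated state (ENSMUSG00000000247, chromosome 2, 38339281 to 38369733, plus strand). It had 40.9, 33.6, 35.0 and 47.7 CPM in Bmal1cKO replicates 1 to 4, against 41.6, 32.3, 25.7 and 58.9 CPM in Bmal1WT replicates 1 to 4. The means were 39.3 ± 6.45 CPM in Bmal1cKO and 39.6 ± 14.4 CPM in Bmal1WT (SD, n = 4 each). The log2 fold change was -0.01 ± 0.23 (SE, edgeR adjusted p = 0.997), with a 95% interval of -0.53 to 0.50.

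Sox9 encodes a factor that bulge cells need for their specification and upkeep (ENSMUSG00000000567, chromosome 11, 112782224 to 112787760, plus strand). It had 43.8, 44.1, 41.0 and 56.6 CPM in Bmal1cKO replicates 1 to 4, against 40.6, 47.8, 33.9 and 72.9 CPM in Bmal1WT replicates 1 to 4. As for Lgr5, the order of the replicate numbers was the same in both groups, here 4 above 2, 1 and 3. The log2 fold change was -0.07 ± 0.21 (SE, edgeR adjusted p = 0.971), with a 95% interval of -0.55 to 0.41.

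Nfatc1 encodes a calcineurin-activated factor that holds bulge cells in quiescence and represses Cdk4 (ENSMUSG00000033016, chromosome 18, 80606205 to 80713071, minus strand). It had 67.2, 74.1, 63.8 and 71.5 CPM in Bmal1cKO replicates 1 to 4, against 71.6, 56.3, 57.5 and 75.6 CPM in Bmal1WT replicates 1 to 4. The Bmal1cKO libraries lay inside the range of the Bmal1WT ones. The log2 fold change was 0.08 ± 0.10 (SE, edgeR adjusted p = 0.902), with a 95% interval of -0.14 to 0.31.

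Fgf18 encodes a ligand that bulge cells secrete and that prolongs the resting phase of the follicle, acting through receptors such as FGFR3 (ENSMUSG00000057967, chromosome 11, 33117430 to 33147400, minus strand). It had the lowest counts of the 8, 1491 over all libraries. Bmal1cKO replicates 1 to 4 had 6.13, 4.35, 5.56 and 4.26 CPM, against 3.97, 3.13, 3.04 and 6.68 CPM in Bmal1WT replicates 1 to 4. All 4 Bmal1cKO libraries were above 3 of the Bmal1WT libraries and below the fourth, replicate 4. Its log2 fold change, 0.27 ± 0.26 (SE, edgeR adjusted p = 0.866), had a 95% interval of -0.30 to 0.85, or 0.81- to 1.8-fold, the widest of the 8.

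**Figure D2:**
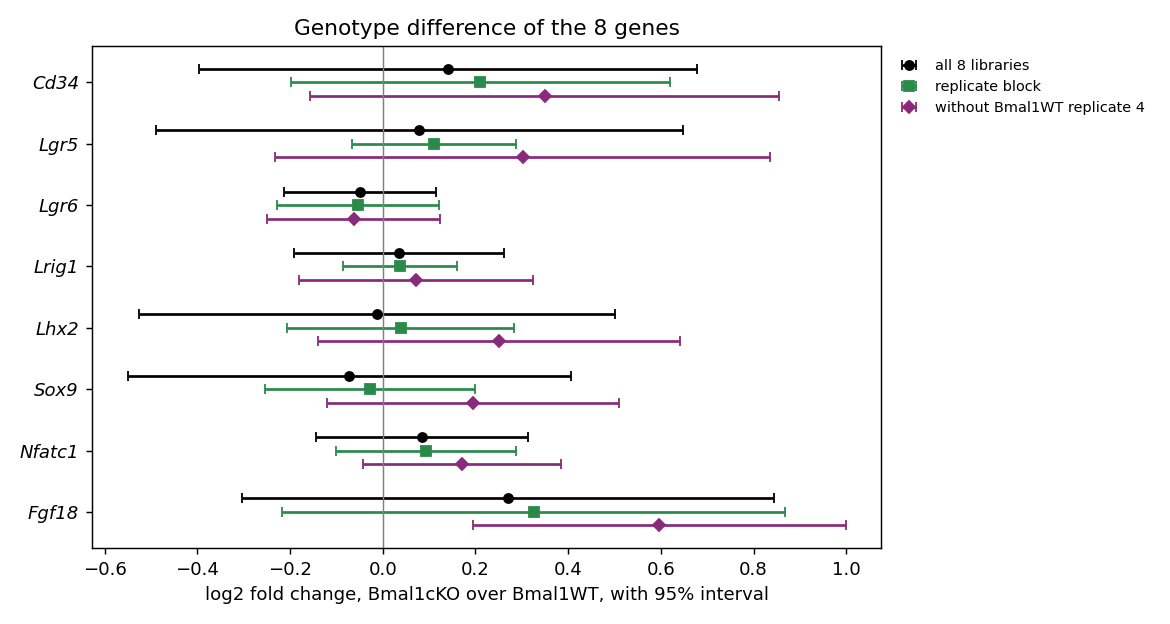
The x axis gives the log2 fold change, Bmal1cKO over Bmal1WT, for each gene, with its 95% interval from edgeR. Circles use all 8 libraries, squares add the replicate number as a block, and diamonds leave out Bmal1WT replicate 4. All 8 intervals include 0 with all libraries. Without Bmal1WT replicate 4 the Fgf18 interval of 0.19 to 1.00, unadjusted for the number of genes, does not. That library was the highest for Fgf18, so leaving it out raised the value by construction.

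The spread between libraries of 1 genotype was larger than the difference between the genotypes, and it was not the same for all 8 genes. In Bmal1WT the SD was 36.8% of the mean for Cd34, 34.6% for Lgr5, 36.3% for Lhx2, 34.9% for Sox9 and 40.6% for Fgf18. It was 4.01% for Lgr6, 12.1% for Lrig1 and 15.1% for Nfatc1. In Bmal1cKO the shares were 6.6 to 24.5%, and 7 of the 8 genes had the larger SD in Bmal1WT. Whether the spread differs between the genotypes was not tested.

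For Cd34, Lgr5, Lhx2, Sox9 and Fgf18, the extremes of the Bmal1WT group were replicates 3 and 4. Replicate 4 was the highest of the 8 libraries for Cd34, Lgr5, Lhx2, Sox9, Nfatc1 and Fgf18, 6 of 8, where it was the highest for 11.4% of all genes tested. Replicate 3 was the lowest for Cd34, Lgr5, Lhx2, Sox9 and Fgf18, 5 of 8, where it was the lowest for 11.9% of all genes. These libraries were singled out after the values were seen. Relative to the mean of the other 3 Bmal1WT libraries, replicate 4 was 1.6-fold for Cd34, 1.64-fold for Lgr5, 1.77-fold for Lhx2, 1.79-fold for Sox9 and 1.98-fold for Fgf18. The ratio was 0.941 for Lgr6, 1.08 for Lrig1 and 1.22 for Nfatc1.

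Several lists of follicle genes, and fibroblast markers, were also often highest in Bmal1WT replicate 4. It was the highest library for 13 of 15 tested genes of growing follicles, 7 of 8 of the isthmus and infundibulum, 10 of 21 other bulge and hair germ genes, and 5 of 7 tested fibroblast markers. Krt71, a keratin of the inner root sheath, had 0.646, 0.541, 0.561 and 3.81 CPM in Bmal1cKO replicates 1 to 4, against 2.41, 1.03, 0.414 and 13.8 CPM in Bmal1WT replicates 1 to 4. Col1a1, a dermal collagen, had 0.75, 0.824, 0.982 and 3.7 CPM in Bmal1cKO replicates 1 to 4, against 1.53, 3.1, 0.316 and 13.4 CPM in Bmal1WT replicates 1 to 4. Replicate 4 was thus the highest of its group for both genes in both genotypes. The part of growing follicles or of dermal cells in the levels of the 8 genes was not tested. Of the 10 genes of interfollicular basal cells tested, Bmal1WT replicate 4 was the highest for 0. Among tested markers of other cell types, it was the highest for 1 of 10 of the sebaceous gland and 1 of 3 of the dermal papilla. For melanocyte markers it was 2 of 6, for endothelial markers 1 of 3 and for mast cell markers 1 of 1.

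**Figure D3:**
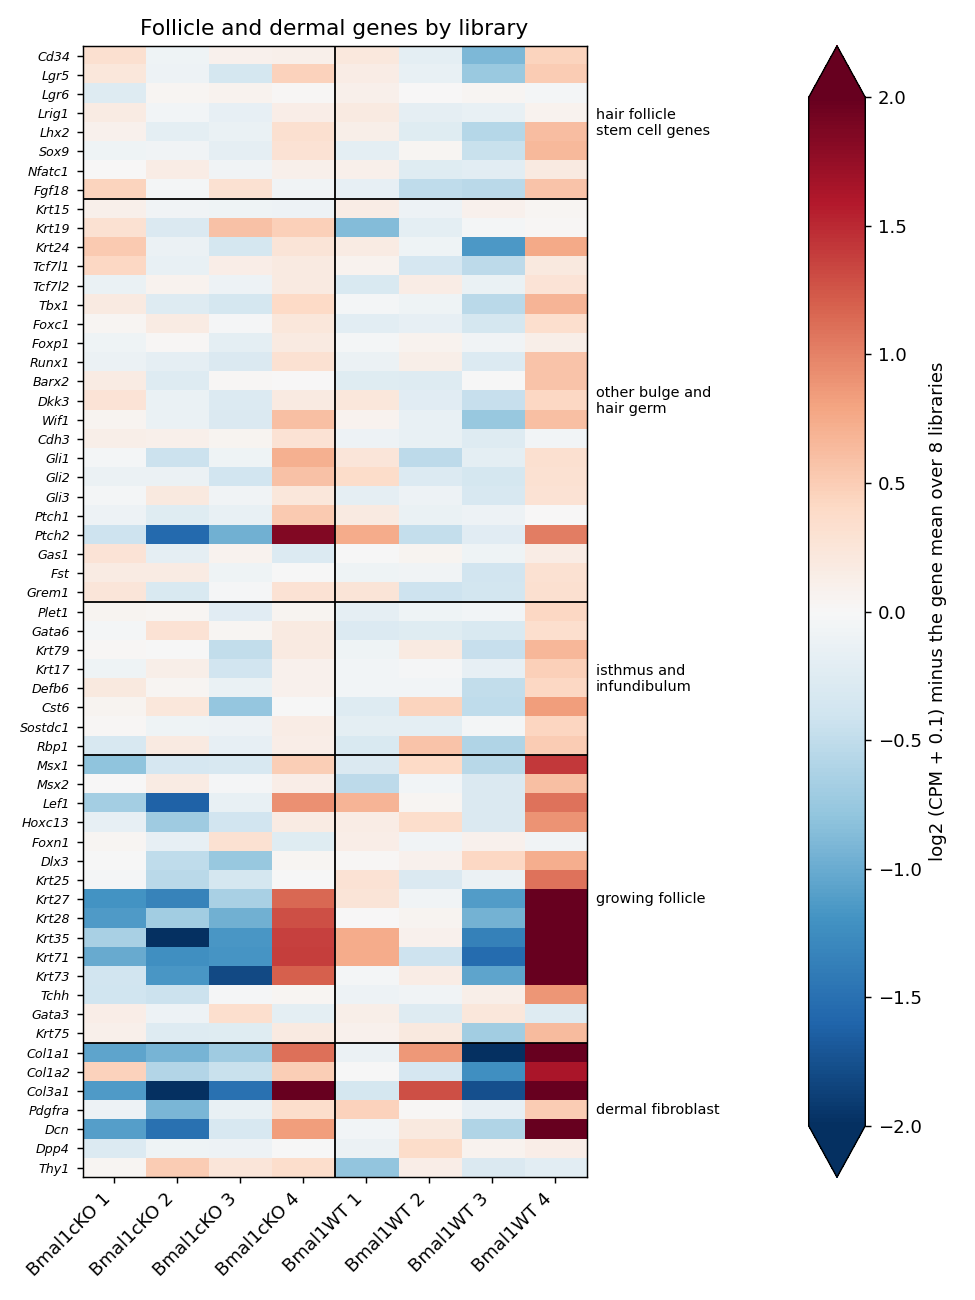
Rows are all tested genes of 5 lists, columns the 8 libraries with Bmal1cKO on the left, and colour gives log2 (CPM + 0.1) minus the mean of the gene over the libraries, with values beyond the ends of the scale at the end colours. Bmal1WT replicate 4 is the highest library in 13 of 15 growing follicle rows, with Krt71 at 13.8 CPM, in 10 of 21 other bulge and hair germ rows and in 5 of 7 fibroblast rows, and Bmal1WT replicate 3 is low for Cd34, Lgr5, Lhx2, Sox9 and Fgf18.

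Without Bmal1WT replicate 4, edgeR called 31 genes, 0.156% of those tested, and again 0 of the 8. Lhx2 had a log2 fold change of 0.25 ± 0.17 (SE) and Sox9 of 0.19 ± 0.14, both with the other sign than over all libraries. Cd34 had 0.35 ± 0.22, Lgr5 0.30 ± 0.24, Nfatc1 0.17 ± 0.09, Lrig1 0.07 ± 0.11 and Lgr6 -0.06 ± 0.08. In that fit 7 of the 8 lay above 0, with 50% of all genes below 0. Bmal1WT replicate 4 was the highest library for 6 of the 8, so leaving it out raised their values by construction. The share over all genes is therefore no fair measure for them. Without that library Fgf18 averaged 5.07 ± 0.92 CPM in Bmal1cKO (SD, n = 4) and 3.38 ± 0.51 CPM in the remaining Bmal1WT libraries (SD, n = 3). Its log2 fold change of 0.60 ± 0.18 (SE) had an edgeR adjusted p = 0.43, which did not pass. Without Bmal1WT replicate 3, Cd34 had -0.07 ± 0.15, Lgr5 -0.11 ± 0.21, Lhx2 -0.17 ± 0.20, Sox9 -0.21 ± 0.19 and Lrig1 -0.01 ± 0.11, all below 0, and Fgf18 had 0.14 ± 0.26. Replicate 3 was the lowest library for 5 of the 8, so leaving it out lowered their values in the same way. Cd34, Lgr5, Lrig1, Lhx2 and Sox9 thus had opposite signs without replicate 3 and without replicate 4.

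Within the sexes, each with 2 libraries per genotype, 0 of the 8 genes passed, against 0.0657% of all genes in the female and 0.51% in the male libraries. Between the female libraries Fgf18 had a log2 fold change of 0.75 ± 0.19 (SE), Cd34 0.45 ± 0.35, Lgr5 0.20 ± 0.33, Sox9 0.19 ± 0.11 and Lhx2 0.18 ± 0.23. Between the male libraries the values were -0.19 ± 0.34 for Fgf18, -0.14 ± 0.20 for Cd34, -0.01 ± 0.25 for Lgr5, -0.26 ± 0.21 for Sox9 and -0.16 ± 0.28 for Lhx2. The other 3 genes had the higher value in males. Lgr6 had -0.15 ± 0.12 in female and 0.06 ± 0.07 in male libraries. Lrig1 had -0.02 ± 0.16 in female and 0.10 ± 0.11 in male libraries, and Nfatc1 had 0.03 ± 0.12 in female and 0.15 ± 0.14 in male libraries. The genotype difference was tested for a dependence on sex with an interaction term. For Fgf18 the male minus the female log2 fold change was -0.94 ± 0.45 (SE, edgeR adjusted p = 0.739). The interaction was called for 0 of the 8 and for 1 of all genes, 0.00509% of those tested. Bmal1WT replicate 4 is 1 of the 2 male and replicate 3 1 of the 2 female Bmal1WT libraries, so sex and these libraries cannot be told apart.

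Levels were set side by side per length, as CPM per kilobase of annotated exon. Lrig1 was the most abundant at 37.8 ± 4.03 CPM per kilobase (SD, 8 libraries), above the level of 90.5% of tested genes. Lgr6 followed at 17.2 ± 1.23, then Sox9 at 11.5 ± 2.93, Cd34 at 9.43 ± 2.34, Nfatc1 at 9 ± 0.99, Lhx2 at 8.98 ± 2.35, Fgf18 at 3.91 ± 1.14 and Lgr5 at 2.8 ± 0.78 CPM per kilobase. Lrig1 was above Lgr6 in 8 of 8 libraries and Lhx2 above Fgf18 in 8 of 8, and in both cases the ranges were separate. Lgr6 was above Sox9 in 7 of 8 libraries and Fgf18 above Lgr5 in 7 of 8. Sox9, Cd34, Nfatc1 and Lhx2 had overlapping ranges, and neighbours in that order kept it in 6, 6 and 5 of 8 libraries.

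**Figure D4:**
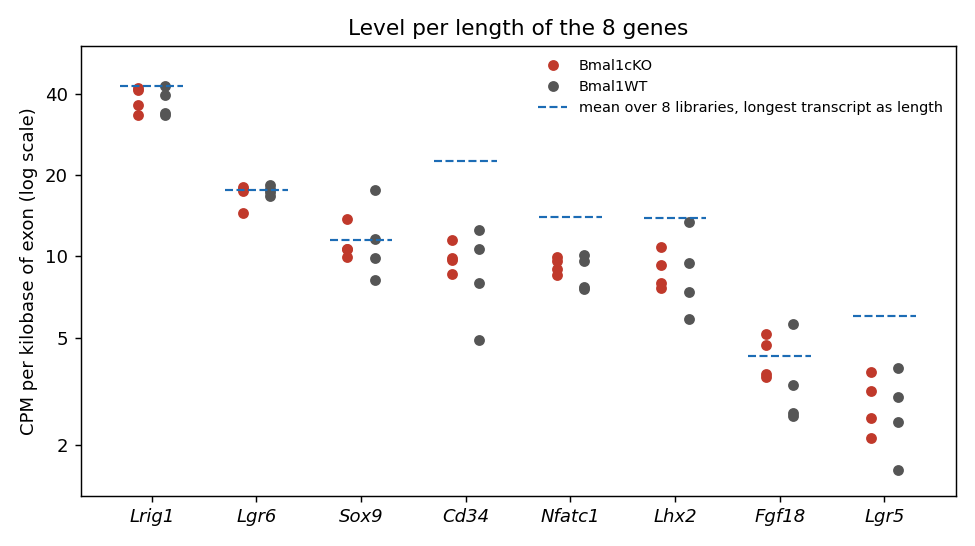
The y axis gives CPM per kilobase of exon on a log scale, with a point for each Bmal1cKO library on the left and each Bmal1WT library on the right of every gene, ordered by the mean over 8 libraries. Dashes give that mean with the longest annotated transcript as the length. Lrig1 at 37.8 CPM per kilobase lies above the other 7 genes, and Cd34 moves to 22.5 CPM per kilobase with the other length.

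Taking the longest annotated transcript as the length moved Cd34 to 22.5, above Lgr6 at 17.7, and Lgr5 to 6 CPM per kilobase, above Fgf18 at 4.27. The order below Lrig1 therefore depended on the length used.

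Among genes that work with the 8, the third receptor of the LGR family, Lgr4, was at 10.3 CPM per kilobase, against 17.2 for Lgr6 and 2.8 for Lgr5. Of the R-spondin ligands only Rspo3 passed the filter on low counts, at 11.5 ± 3.67 CPM in Bmal1cKO and 10.99 ± 2.98 CPM in Bmal1WT (SD, n = 4 each), which is 3.65 CPM per kilobase over all libraries. Of the 8 tested genes of this list 0 were called, and their median log2 fold change was 0.03. The named genes were Axin2, a WNT feedback gene, at 0.13 ± 0.08 (SE, edgeR adjusted p = 0.728), and Lgr4 at 0.12 ± 0.10 (0.824).

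FGF receptors and other skin FGFs were counted per gene, which does not tell splice forms of a receptor apart. Fgfr3 was at 37.1, Fgfr2 at 28.2 and Fgfr1 at 11.4 CPM per kilobase, while Fgfr4 did not pass the filter. Fgfr3 had a log2 fold change of -0.01 ± 0.07 (standard error, edgeR adjusted p = 0.995). Of the 8 tested genes in this list 0 were called, with a median of 0.01. Fgfbp1, which encodes a carrier that releases FGFs from the matrix, averaged 130 ± 1.54 CPM in Bmal1cKO and 108 ± 16.3 CPM in Bmal1WT (SD, n = 4 each), a log2 fold change of 0.26 ± 0.09 (standard error, edgeR adjusted p = 0.472). Fgf22 had -1.01 ± 0.51 (edgeR adjusted p = 0.653).

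In the calcineurin and NFAT list, 0 of 12 tested genes were called and the median log2 fold change was -0.02. Nfatc2, a paralog of Nfatc1, averaged 17.0 ± 3.27 CPM in Bmal1cKO and 21.7 ± 1.93 CPM in Bmal1WT (SD, n = 4 each), with -0.35 ± 0.13 (SE, edgeR adjusted p = 0.487). Cdk4, the cell cycle kinase gene that NFATC1 represses, had 0.12 ± 0.05 (edgeR adjusted p = 0.56). Per kilobase, Nfat5 was at 12.75 CPM, Nfatc1 at 9, Nfatc3 at 7.51, Nfatc2 at 1.83 and Nfatc4 at 0.26.

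Of the LRIG paralogs and ERBB receptors 0 of 6 tested were called, with a median of -0.01. Lrig2 had a log2 fold change of -0.16 ± 0.06 (standard error, edgeR adjusted p = 0.487) and Egfr, a receptor that LRIG1 restrains, 0.11 ± 0.05 (0.634). Lrig3 was at 12.8 and Lrig2 at 3.06 CPM per kilobase, both below Lrig1 at 37.8. Of the LIM and SOX partners 0 of 9 tested were called, with a median of -0.00348. Ldb1, the cofactor of LIM-homeodomain proteins, had -0.07 ± 0.08 (edgeR adjusted p = 0.895) and Sox6 0.11 ± 0.13 (0.902).

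Other genes of the follicle's stem cell regions likewise gave no calls in edgeR. Of 21 other bulge and hair germ genes 0 were called, 12 lay above and 9 below 0, and the median log2 fold change was 0.05, against 53% of all genes below 0. Without Bmal1WT replicate 4, 20 of the 21 lay above 0 and the median was 0.24. That library was the highest for 10 of the 21 and was singled out after the values were seen. Part of this shift was therefore fixed by the choice of library. Cdh3, which encodes P-cadherin, an adhesion molecule of basal and hair germ cells, had 97.0, 96.1, 93.3 and 109.7 CPM in Bmal1cKO replicates 1 to 4, against 83.3, 81.1, 74.5 and 85.8 CPM in Bmal1WT replicates 1 to 4. These groups did not overlap, and the log2 fold change of 0.29 ± 0.07 (SE) missed the threshold with an edgeR adjusted p = 0.189. DESeq2, which called 1.18% of genes with an adjusted p, gave 0.0141, and the adjusted p over the alternatives ran up to 0.839. Krt19, a bulge keratin, was near the lower limit of detection, at 0.908 ± 0.245 CPM in Bmal1cKO and 0.595 ± 0.171 CPM in Bmal1WT (SD, n = 4 each, edgeR adjusted p = 0.639). Krt15, a keratin of bulge and basal cells, was at 3275 ± 216 CPM in Bmal1cKO and 3466 ± 259 CPM in Bmal1WT (SD, n = 4 each, edgeR adjusted p = 0.899).

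Of the 8 isthmus and infundibulum genes 0 were called, with a median of -0.09, or 0.08 without Bmal1WT replicate 4. Gata6, a factor of the upper follicle, had 0.22 ± 0.15 (SE, edgeR adjusted p = 0.774) and Cst6, a protease inhibitor gene, -0.31 ± 0.30 (0.873). The 15 tested genes of growing follicles gave 0 calls, with 13 below 0 and a median of -0.62. Without Bmal1WT replicate 4, 8 of the 15 lay below 0 and the median was -0.05. Dlx3, a homeobox factor of the hair matrix, averaged 4.91 ± 1.3 CPM in Bmal1cKO and 7.53 ± 1.77 CPM in Bmal1WT (SD, n = 4 each), a log2 fold change of -0.62 ± 0.22 (standard error, edgeR adjusted p = 0.463, 0.678 without Bmal1WT replicate 4). Hoxc13, which drives hair keratins, had -0.60 ± 0.27 (edgeR adjusted p = 0.607, 0.836 without that library). Sebaceous gland markers had 0 calls in 10 tested, with Scd1 at 0.22 ± 0.19 (edgeR adjusted p = 0.843) and Awat2 at -0.35 ± 0.32 (0.853).

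Of the 10 tested genes listed for interfollicular basal cells 0 were called, with 9 above 0 and a median of 0.13. Itgb1, an integrin subunit, had 0.16 ± 0.05 (SE, edgeR adjusted p = 0.427) and Ly6a 0.32 ± 0.14 (0.57). Of the 11 clock genes edgeR called 6, with Nr1d1, Nr1d2, Dbp and Per3 lower and Cry1 and Npas2 higher in Bmal1cKO.

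Markers of the other cell types that can carry some of the 8 genes were read in the same libraries. The 10 endothelial markers, relevant to Cd34, summed to 1.88 to 3.34 CPM in Bmal1cKO and 2.31 to 3.89 CPM in Bmal1WT, with the defining gene Cdh5 at 0.0275 CPM in Bmal1cKO and 0.0607 CPM in Bmal1WT. Only Pecam1, Eng and Vwf passed the filter, and Pecam1 had -0.33 ± 0.37 (SE, edgeR adjusted p = 0.898) and Eng 0.22 ± 0.32 (0.925). Cd34 itself was at 35.6 CPM or more in every library. The 10 fibroblast markers summed to 75.5 to 98.3 CPM in Bmal1cKO and 50.9 to 104 CPM in Bmal1WT, most of it Thy1, which epidermal T cells also make, while Pi16 and Lum did not pass the filter. Thy1 averaged 70.3 ± 9.64 CPM in Bmal1cKO and 48.4 ± 12.2 CPM in Bmal1WT (SD, n = 4 each, log2 fold change 0.54 ± 0.17 SE, edgeR adjusted p = 0.421), and with the replicate block, which called 0.774% of genes, its adjusted p was 0.0226. Dpp4 had -0.24 ± 0.11 (edgeR adjusted p = 0.614). Thy1 was the 1 of the 7 tested fibroblast markers above 0, and the other 6 lay below, with a median of -0.44 over the 7 and of -0.06 without Bmal1WT replicate 4, and 0 were called.

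The 8 dermal papilla markers summed to 10.3 to 16.9 CPM in Bmal1cKO and 9.13 to 15.7 CPM in Bmal1WT, mostly Rspo3, with the defining gene Corin at 0.0265 CPM in Bmal1cKO and 0.0174 CPM in Bmal1WT. Crabp1 had 0.50 ± 0.42 (SE, edgeR adjusted p = 0.834) and Hhip 0.22 ± 0.36 (0.934). Of the mast cell markers only Kit passed the filter, at -0.68 ± 0.39 (edgeR adjusted p = 0.712). Among those that did not, Cpa3 had 0 counts in Bmal1cKO and 6 in Bmal1WT, and Hdc had 33 in Bmal1cKO and 34 in Bmal1WT. The 7 melanocyte markers summed to 19 to 41.9 CPM in Bmal1cKO and 22.3 to 40.2 CPM in Bmal1WT, with 0 calls among 6 tested, Mlana at -0.66 ± 0.38 (SE, edgeR adjusted p = 0.712) and Mitf at 0.18 ± 0.11 (0.736). The part of these cells in the values of the 8 genes was not tested.

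For each of the 8 genes, the 3 tested genes with the most similar pattern over the 8 libraries were found by the root-mean-square difference of log2 CPM, each gene centred on its own mean. This describes libraries that share depth and tissue makeup. Lgr5 was nearest to Wif1, a secreted WNT inhibitor made in the bulge, at a root-mean-square difference of 0.0961, followed by Sdk2 at 0.121 and Mark1 at 0.125, where the median over all genes was 0.428. Lhx2 was nearest to Pdlim7 at 0.0596, then Sdk2 at 0.081 and Farp1 at 0.115. Sox9 was nearest to Runx1, a factor that promotes activation of the follicle's stem cells, at 0.0973, then Chchd10 at 0.104 and Capn2 at 0.114. Sdk2 stood near both Lgr5 and Lhx2.

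Cd34 was nearest to Col6a2, a collagen gene, at 0.123, then AC165962.4 at 0.127 and Lhfp at 0.138. Fgf18 was nearest to Gm7628 at 0.174, Igdcc4 at 0.176 and the collagen gene Col5a2 at 0.18. Nfatc1 was nearest to Plekha7 at 0.0453, Ltbp3 at 0.061 and AC115117.1 at 0.071. Lrig1 was nearest to Gm12928 at 0.0471, Acsf2 at 0.0594 and Mrm2 at 0.0643, and genes near Lgr6 included Gm8228 at 0.0431 and Riok2 at 0.0474. Nfatc1, Lrig1 and Lgr6 vary little, and the median over all genes was correspondingly low for them, at 0.217, 0.211 and 0.182.

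Among the 8 genes themselves, Lgr5 and Lhx2 held the nearest positions, at a root-mean-square difference of 0.134, which placed Lhx2 in position 6 of 19645 genes for Lgr5 and Lgr5 in position 9 for Lhx2. Lhx2 and Sox9 were 0.174 apart, in positions 35 and 53. Cd34 and Lhx2 were 0.195 apart, in positions 22 and 65, and Cd34 and Lgr5 0.213 apart, in positions 39 and 46. Lrig1 and Nfatc1 were 0.113 apart, in positions 255 and 178. Lgr6 stood far from each of the other 7, its nearest being Nfatc1 at 0.188, in position 10299.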

How the data were processed

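The deposited values were raw counts per Ensembl gene from polyA-selected, stranded, single-read libraries, made by the authors with Trim Galore, STAR 2.7.10a and featureCounts on mm10/GRCm38, per the submitters' processing notes. No source used here gives the strand or multi-mapping setting, so reads of paralogs and of overlapping genes could be shared. Genes were kept by filterByExpr (minimum count 10), scaled by TMM and tested with edgeR 4.0.16 (quasi-likelihood, R 4.3.3) over all 19646 genes kept, with Benjamini-Hochberg adjustment at 0.05. DESeq2 1.42.0 and limma 3.58.1 were alternatives, with other scalings, filters, a replicate block, sex as covariate and each library left out. Total counts were 35685261 to 50396156 per library.

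Of 34070 identifiers, 33921 matched a symbol. The 8 genes, the 15 other lists and the clock genes were chosen with earlier results of these data known. The text names all 8 genes and, from each other list, every called gene or else the 2 with the smallest unadjusted p, plus paralogs, partners and the 3 nearest patterns, of which 1 is not reported here. Values named to describe libraries or marker lists (Krt71, Col1a1, Krt15, Cdh5, Corin, Cpa3, Hdc, Vwf, Pi16 and Lum) were chosen after they were seen. Replicate numbers come from the labels. Deviations from the group means correlated at 0.327 to 0.483 between same-numbered libraries. These libraries also share sex, and no values for differently numbered libraries were set beside them. The correlations therefore cannot show that the numbers pair the libraries, and the replicate block was used as an alternative only.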

Additional observations from a re-analysis of the deposited data

Results flagged for a closer look

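Lgr6 in Bmal1cKO replicate 1 stood apart from its group. It had 98.8 CPM, against 119.7 to 123.8 CPM in the other 3 Bmal1cKO libraries. Its gap to the nearest library was 0.835 of the whole range of the group, above Dixon's critical value of 0.829 for 4 libraries. Chance flags about 1 in 20 such groups, and each of the 8 genes was looked at in both genotypes. Without this library the Lgr6 log2 fold change was 0.02 ± 0.05 (SE, edgeR adjusted p = 0.96).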

How the results depend on the processing

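Of 136 values of the 8 genes under 17 alternatives, 0 passed an adjusted p of 0.05 and 22 had the other sign. Of these 22, 8 were of Lhx2 and 0 of Nfatc1. The cause was not tested. With male libraries alone, the log2 fold change was -0.14 for Cd34, -0.010 for Lgr5, 0.056 for Lgr6 and -0.19 for Fgf18. With female libraries alone it was -0.018 for Lrig1, 0.18 for Lhx2 and 0.19 for Sox9. Lhx2 was 0.046 in limma voom, 0.038 with the replicate block and 0.0029 with sex as a covariate. Leaving out 1 library at a time gave -0.065 to 0.35 for Cd34, -0.11 to 0.30 for Lgr5, -0.078 to 0.020 for Lgr6, -0.012 to 0.11 for Lrig1, -0.17 to 0.25 for Lhx2 and -0.21 to 0.19 for Sox9. Nfatc1, at 0.026 to 0.17, and Fgf18, at 0.14 to 0.60, stayed above 0 in these fits. Over all genes edgeR called 34. The count was 246 in DESeq2, 71 without the filter, 152 with the replicate block, 119 with sex as a covariate, 13 in female and 101 in male libraries alone, and 23 to 32 with 1 library left out. Outside the clock list, 0 listed genes were called, except 1 in DESeq2 (Cdh3) and 1 with the replicate block (Thy1). In the clock list both called 8 of 11 genes, against 6, and the block changed no other call of a listed gene. Fgf18 had the fewest counts, 1491 over 8 libraries, and Lgr5 the next fewest, 9230.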
